A study of Mus musculus with 8 samples.

Results

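Core and linker histone genes were followed on 8 gene expression arrays of NMuMG cells, an epithelial line from mouse mammary gland that TGFbeta is known to drive towards a mesenchymal state. A probeset, the set of probes that gives 1 value, was included where every gene symbol the platform's probe table gives for it was a histone gene, under its present or an earlier name. Of 34760 probesets, 68 met the rule: 47 by the platform's symbol and 21 more by an earlier symbol of the same gene. They named 83 histone genes. Of the 68 probesets, 46 carried 1 symbol and 22 carried several, since the coding sequences of clustered histone genes are near copies of each other. The signal of a shared probeset cannot be given to 1 gene, and many shared probesets name the same genes, so the members are not independent of each other.

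The arrays fell into 4 groups of 2. The groups were cells with the vector carrying major satellite sequences after 8 h of TGFbeta, the same cells untreated (0 h), cells with the control vector after 8 h of TGFbeta, and control vector cells untreated. All cells were stably transfected NMuMG cells. Every untreated array was of 0 h and every TGFbeta array of 8 h. The TGFbeta differences below therefore cannot be told apart from those of 8 h more in culture. The labels do not say whether each line was 1 clone or a pool, nor whether the 2 arrays of a group came from separate cultures, so every p-value rests on the spread between the deposited arrays alone. Each array carried 1 of 2 codes in its title, read as replicate number 1 or 2, and each group held 1 array of each number. Deposited values are log2, so a difference of -1 is a fall by a factor of 2.

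Arrays of replicate number 1 had medians over all probesets of 7.72 to 7.76, and arrays of number 2 of 7.88 to 7.92. Deviations from the group mean correlated between same-numbered arrays of different groups at r = 0.829 to 0.893 over all probesets and at r = 0.344 to 0.860 over the histone probesets, where probesets are not independent replicates. The numbers therefore paired the arrays. Differences were fitted with limma both without the number and with the number as a block (called blocked). Calls of members and of lists are counted in both fits, while some single genes have values from the blocked fit alone. All 11 markers of the mammary epithelial line were measured, with levels of 6.09 to 14.32, against 4.73 to 8.68 for 9 fibroblast markers and 5.82 to 8.82 for 9 endothelial and immune markers. The median levels of these lists were 9.13, 7.57 and 6.54. The lowest epithelial level lay within the ranges of both other lists, while the epithelial markers Krt8 and Cdh1 stood at 14.32 and 12.91. With TGFbeta, 9 of 9 fibroblast markers had a positive average difference, with a median of 0.10 and a highest of 0.66, and 3 were called higher in the blocked fit. Of 11 epithelial markers, 7 were positive, with a median of 0.08 and a highest of 2.25, and 2 were called higher and 1 lower. Of 9 endothelial and immune markers, 7 were positive, with a median of 0.04, and 1 was called higher. Of all probesets, 46.3% had a negative difference. In the blocked fit 12.1% of all probesets were called, with 6.8% lower and 1858 of 34760 higher. Without the block, 1 epithelial marker was called higher and 0 markers of the other lists were called, where 1.33% of all probesets were. The mean level over the fibroblast list was 7.36 to 7.50 on the major satellite TGFbeta arrays against 7.12 to 7.32 untreated, and 7.32 to 7.50 on the control vector TGFbeta arrays against 7.04 to 7.36 untreated. Over the epithelial list it was 10.10 to 10.25 against 9.88 to 9.95 untreated with the major satellite vector. With the control vector it was 10.14 to 10.22 against 9.81 to 10.03. The part of these marker differences in the histone differences was not tested.

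Core histones package DNA into nucleosomes, in which an H3-H4 tetramer is flanked by H2A-H2B dimers, and the linker histone H1 binds the DNA that enters and leaves. Replication-dependent histone genes sit in clusters, are transcribed mainly in S phase, and give mRNAs that end in a stem-loop bound by SLBP in place of a poly(A) tail. Variant histones are encoded by single genes, are mostly made throughout the cycle as polyadenylated mRNAs, and are placed into chromatin by their own chaperones. A further small set of cluster genes is known for its use in testis.

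The replication-dependent set held 50 probesets, of which 4 were of H1, 4 of H2A, 16 of H2B, 12 of H3 and 12 of H4, with 1 shared by H1 and H2B and 1 by H2A and H3. The variants held 15 probesets, of which 9 were of somatic variants and 5 of germ line variants. The remaining variant probeset was of Macroh2a3. The testis cluster genes were H1f6, H2ac1 and H2bc1, with 1 probeset each. The median level over the 8 arrays was 11.82 for the replication-dependent probesets, 9.50 for the somatic variants, 7.63 for the germ line variants and 7.80 for all probesets. Of the 68 members, 67 had a mean of at least 6, and the member below it was H3c7, at 5.28. A further 7 probesets paired a histone symbol with another gene and were not members. They included the bright probesets of H3f3a and H3f3b, the genes of the replacement histone H3.3. Their average TGFbeta differences ran from -0.05 to 0.04.

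The promoter windows of 7 genes are shown to let the sequence families be seen beside the values that follow. H3c15, H3c4, H2bc9, H2ac8, H4c9 and Macroh2a2 had a probeset of their own that was called lower with TGFbeta in the blocked fit, and H1f2 was a linker gene with a difference near 0, chosen after its values were seen. Each window runs from 250 bases before to 50 bases after a RefSeq gene start, build GRCm38.p6, written 5′ to 3′ on the gene's strand. Capitals mark matches on either strand to 5 motifs: the TATA box TATAAA, the box CCAAT, the octamer ATTTGCAT, the H1 box AAACACA, and the string GGTCCG. H3c15 lay at chr3:96239078-96239377 on the minus strand, H3c4 at chr13:23575513-23575812 on the plus strand, H2bc9 at chr13:23543395-23543694 on the minus strand and H2ac8 at chr13:23571171-23571470 on the minus strand. H4c9 lay at chr13:22041313-22041612 on the minus strand, Macroh2a2 at chr10:61783815-61784114 on the minus strand and H1f2 at chr13:23738557-23738856 on the plus strand.
H3c15: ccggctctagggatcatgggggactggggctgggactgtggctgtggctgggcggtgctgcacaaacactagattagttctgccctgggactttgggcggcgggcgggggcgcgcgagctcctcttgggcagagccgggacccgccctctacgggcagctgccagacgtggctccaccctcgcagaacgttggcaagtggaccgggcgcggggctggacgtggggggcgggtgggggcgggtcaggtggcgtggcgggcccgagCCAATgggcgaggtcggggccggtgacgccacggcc
H3c4: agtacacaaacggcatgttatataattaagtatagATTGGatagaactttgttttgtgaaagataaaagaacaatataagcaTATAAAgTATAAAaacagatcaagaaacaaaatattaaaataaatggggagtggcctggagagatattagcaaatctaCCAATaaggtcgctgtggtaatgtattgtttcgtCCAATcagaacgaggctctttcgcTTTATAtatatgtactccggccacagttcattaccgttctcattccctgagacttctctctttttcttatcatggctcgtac
H2bc9: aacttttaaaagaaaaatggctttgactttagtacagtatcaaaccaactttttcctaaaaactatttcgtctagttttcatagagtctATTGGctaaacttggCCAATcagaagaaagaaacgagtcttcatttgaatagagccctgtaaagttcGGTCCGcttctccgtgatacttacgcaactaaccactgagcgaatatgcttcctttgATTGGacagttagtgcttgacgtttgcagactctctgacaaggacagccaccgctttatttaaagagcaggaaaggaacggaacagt
H2ac8: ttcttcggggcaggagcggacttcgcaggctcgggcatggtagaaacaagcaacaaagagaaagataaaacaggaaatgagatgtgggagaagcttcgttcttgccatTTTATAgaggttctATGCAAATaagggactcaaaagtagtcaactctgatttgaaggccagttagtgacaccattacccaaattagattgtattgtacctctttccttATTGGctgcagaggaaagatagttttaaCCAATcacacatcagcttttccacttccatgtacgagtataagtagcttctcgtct
H4c9: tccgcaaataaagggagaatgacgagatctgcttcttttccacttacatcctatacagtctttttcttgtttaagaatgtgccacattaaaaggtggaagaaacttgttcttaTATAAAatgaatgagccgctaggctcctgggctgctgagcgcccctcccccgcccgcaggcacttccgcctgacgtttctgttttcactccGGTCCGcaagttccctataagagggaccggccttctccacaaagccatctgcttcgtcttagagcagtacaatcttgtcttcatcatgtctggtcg
Macroh2a2: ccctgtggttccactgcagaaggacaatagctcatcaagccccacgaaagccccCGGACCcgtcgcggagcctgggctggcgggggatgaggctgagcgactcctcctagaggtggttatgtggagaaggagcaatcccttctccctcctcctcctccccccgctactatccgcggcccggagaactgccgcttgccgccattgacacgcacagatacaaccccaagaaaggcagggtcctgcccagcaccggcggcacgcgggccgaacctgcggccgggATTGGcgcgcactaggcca
H1f2: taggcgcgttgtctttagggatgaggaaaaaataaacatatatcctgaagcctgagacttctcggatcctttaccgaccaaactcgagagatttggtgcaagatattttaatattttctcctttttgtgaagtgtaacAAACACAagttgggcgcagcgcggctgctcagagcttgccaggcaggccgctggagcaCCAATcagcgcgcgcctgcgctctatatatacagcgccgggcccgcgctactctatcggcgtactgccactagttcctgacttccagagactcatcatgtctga

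Of 74 histone genes searched, 66 matched the promoter table, with 67 windows, and 18 of these overlapped another of them. H2A and H2B genes are known often to share a divergent promoter, but the families of the overlapping windows were not counted. CCAAT, the box bound by NF-Y, was in 5 of 5 H1, 17 of 17 H2A, 16 of 16 H2B and 10 of 10 H3 windows, but in 3 of 12 H4 windows and in 37.4% of all 32851 windows. GGTCCG, a string chosen after the windows had been searched, was in 11 of 12 H4 windows, 1 of 16 H2B windows, 1 of 10 H3 windows 0 of the 5 H1 and 17 H2A windows and 4 of 7 windows of somatic variants, against 8.25% of all windows. ATTTGCAT, the octamer, was in 6 of 17 H2A and 6 of 16 H2B windows, against 1.74% of all. AAACACA, a box known from H1 promoters, was in 4 of 5 H1 windows, against 7.18% of all. TATAAA was in 4 of 5 H1, 10 of 17 H2A, 7 of 16 H2B, 4 of 10 H3 and 8 of 12 H4 windows, in 0 of 7 windows of somatic variants and in 13.6% of all. Matches of 2 motifs overlapped in 1 window. These matches are a description of the letters in the windows.

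After 8 h of TGFbeta, replication-dependent histone probesets mostly had lower values than in untreated cells at 0 h. Somatic variant probesets were also mostly lower, with a smaller median difference. The median difference, averaged over both vectors, was -0.33 over the 50 replication-dependent probesets, of which 48 were negative, against a median of 0.01 over all probesets. It was -0.14 over the 9 somatic variants, of which 8 were negative, and 0.05 over the 5 germ line variants, of which 2 were negative. Of all probesets, 46.3% were negative. Within replicate numbers, 42 of the 68 members were lower with TGFbeta in all 4 pairs of arrays, and 0 were higher in all 4. Of all probesets, 17.5% were lower in all 4 pairs. The 42 were 36 of the 50 replication-dependent, 4 of the 15 variant and 2 of the 3 testis cluster probesets. These 4 variant probesets were all among the 9 of somatic variants. In bulk RNA, fewer cells in S phase and less histone mRNA per cell cannot be told apart.

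Calls were made at an adjusted p under 0.05 by limma, with Benjamini-Hochberg adjustment over all 34760 probesets. Without the block, 0 of 68 members were called, where 1.33% of all probesets were, and 9 members had an unadjusted p under 0.05, where 9.61% of all probesets had. In the blocked fit, 18 members were called, all of them lower, where 12.1% of all probesets were called and 6.8% were called lower. The 18 were 16 replication-dependent probesets (3 of H2A, 5 of H2B, 6 of H3 and 2 of H4) and the variants Macroh2a2 and H2aj. Without 1 array, the blocked count ran from 2 (without the untreated major satellite array of number 2) to 22 (without the control vector TGFbeta array of number 1). It was also more than 1.5 times smaller without 5 other arrays, at 4, 6, 8, 9 and 10 calls, so which single probesets pass depends on the arrays used.

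**Figure D1:**
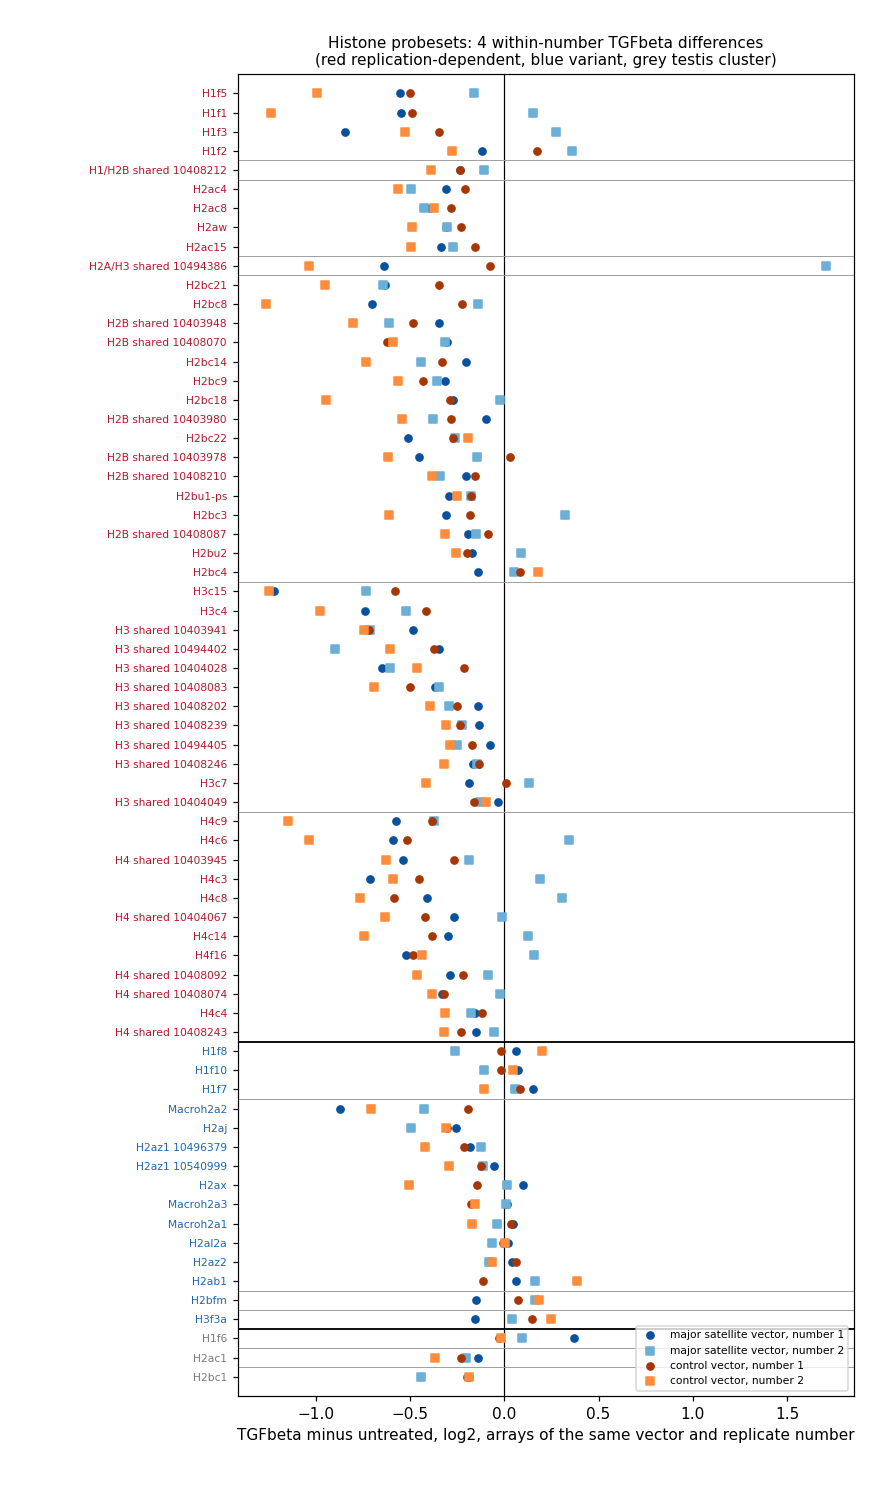
Log2 difference TGFbeta minus untreated (x axis) for each of the 68 histone probesets (rows, grouped by class and family), 1 point per pair of arrays of the same vector and replicate number. Most replication-dependent rows lie left of 0 in all 4 pairs; the exceptions are mostly light blue squares, the number 2 pair of the major satellite vector, in H1 and H4 rows.

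H3 genes had the largest single differences. H3c15, a clustered gene of canonical H3, had 7.98 and 8.53 on the TGFbeta arrays of the major satellite vector, against 9.20 and 9.26 untreated. With the control vector it had 8.00 and 7.86 with TGFbeta, against 8.58 and 9.11 untreated. All 4 TGFbeta arrays lay below all 4 untreated arrays. The average difference was -0.95 ± 0.13 (blocked SE, 2 arrays per group), with an adjusted p of 0.0904 in limma without the block and 0.00901 blocked. H3c4, another canonical H3 gene, had 6.79 and 7.16 with TGFbeta against 7.53 and 7.69 untreated in major satellite cells. In control vector cells it had 6.85 and 6.66 against 7.26 and 7.63. Its groups also did not overlap, and its difference was -0.66 ± 0.11 (limma adjusted p 0.122 without the block, 0.0144 blocked).

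Of the 12 H3 probesets, 9 carried the same 12 gene symbols, and their levels ran from 7.32 to 14.31. The dimmest of these, probeset 10403941, had 7.08 and 7.24 with TGFbeta against 7.56 and 7.96 untreated in major satellite cells, and 6.70 and 6.94 against 7.42 and 7.69 in control vector cells. Its groups did not overlap, and its difference of -0.66 ± 0.06 had the smallest blocked adjusted p of all members in limma, 0.00268 (0.114 without the block). The brightest, probeset 10494405, had 14.44 and 14.10 with TGFbeta against 14.51 and 14.35 untreated in major satellite cells, and 14.40 and 13.92 against 14.57 and 14.21 in control vector cells. Its arrays of both treatments overlapped, and its difference was -0.20 ± 0.07 (limma blocked adjusted p 0.143). Another, probeset 10494402, at -0.56 ± 0.11 (limma blocked adjusted p 0.0278), had groups that did not overlap. The 12 H3 probesets were all negative on average, 11 of them in all 4 pairs, with a median of -0.37.

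H4 pairs with H3 in the nucleosome core. H4c9 had 9.09 and 9.18 with TGFbeta against 9.67 and 9.55 untreated in major satellite cells, and 9.02 and 8.53 against 9.40 and 9.68 in control vector cells. The treatments did not overlap, and the difference was -0.62 ± 0.13 (limma adjusted p 0.143 without the block, 0.0299 blocked). The brightest H4 gene, H4c4, had 14.24 and 13.84 against 14.39 and 14.02 in major satellite cells, and 14.17 and 13.51 against 14.29 and 13.82 in control vector cells. Its difference of -0.19 ± 0.07 was not called (limma blocked adjusted p 0.157). All 12 H4 probesets were negative on average, with a median of -0.33, and 7 were lower in all 4 pairs. In the number 2 pair of the major satellite vector the H4 median was -0.02, and the other 3 pairs had -0.37, -0.39 and -0.61.

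Among H2B genes, H2bc21 had 7.31 and 7.25 with TGFbeta against 7.95 and 7.89 untreated in major satellite cells, and 7.12 and 6.74 against 7.47 and 7.69 in control vector cells. The treatments did not overlap, and the difference was -0.64 ± 0.10 (limma adjusted p 0.0829 without the block, 0.0132 blocked). H2bc9, whose levels differed more between replicate numbers than between treatments, had 12.03 and 11.49 against 12.34 and 11.85 in major satellite cells, and 11.86 and 11.15 against 12.29 and 11.71 in control vector cells. Its treatments overlapped across numbers but not within them, and its difference of -0.42 ± 0.06 had an adjusted p of 0.858 in limma without the block and 0.0114 blocked. H2bc4 was the H2B probeset that did not follow, and was named after its values were seen. It had 12.16 and 11.94 with TGFbeta against 12.30 and 11.89 untreated in major satellite cells, and 12.33 and 12.12 against 12.25 and 11.94 in control vector cells, a difference of 0.04 ± 0.06 with a blocked 95% interval of -0.11 to 0.20. Of the 16 H2B probesets, 15 were negative and 12 were lower in all 4 pairs, with a median of -0.32. The brightest, the shared probeset 10408210 at a mean of 13.67, had a difference of -0.27 ± 0.07 (limma blocked adjusted p 0.0712).

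The 4 H2A probesets were lower in all 4 pairs without exception and had close differences, from -0.31 to -0.40. H2ac8 had 6.74 and 6.33 with TGFbeta against 7.13 and 6.76 untreated in major satellite cells, and 6.76 and 6.28 against 7.04 and 6.65 in control vector cells. The within-number differences were alike in size, and the average of -0.37 ± 0.06 had an adjusted p of 0.718 in limma without the block and 0.0116 blocked. H2ac4 and H2aw were also called in the blocked fit, at -0.40 and -0.33. The brightest, H2ac15, had a difference of -0.31 ± 0.08 (limma blocked adjusted p 0.0619). Probeset 10494386, shared by H2A genes, H2ax and an H3 gene, stood apart: it had 10.27 and 11.46 with TGFbeta against 10.91 and 9.75 untreated in major satellite cells, and 10.56 and 8.98 against 10.64 and 10.02 in control vector cells. Its blocked SE was 0.43, and its difference was -0.013, or 0.013 after quantile normalization.

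The 4 linker histone H1 probesets had differences from -0.55 to 0.03. H1f5, the brightest H1 probeset, had 12.10 and 11.85 with TGFbeta against 12.66 and 12.01 untreated in major satellite cells, and 12.02 and 10.82 against 12.52 and 11.81 in control vector cells. It was lower in all 4 pairs, with a difference of -0.55 ± 0.15 (limma adjusted p 0.85 without the block, 0.0701 blocked). H1f1, named after its values were seen, had a difference of -0.53 ± 0.21 and was lower in 3 of 4 pairs, with 11.57 against 11.42 in the number 2 pair of the major satellite vector. H1f2 had 10.91 and 11.13 against 11.03 and 10.77 in major satellite cells, and 10.97 and 10.64 against 10.79 and 10.91 in control vector cells. Its difference was 0.03 ± 0.11, with a blocked 95% interval of -0.24 to 0.30. None of the 4 H1 probesets was called, and 1 was lower in all 4 pairs. Their median was -0.45. By pair it was -0.55 and 0.21 in numbers 1 and 2 of the major satellite vector, and -0.42 and -0.76 in those of the control vector. In the blocked limma fit 2 had an unadjusted p under 0.05, where 25.9% of all probesets had.

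**Figure D2:**
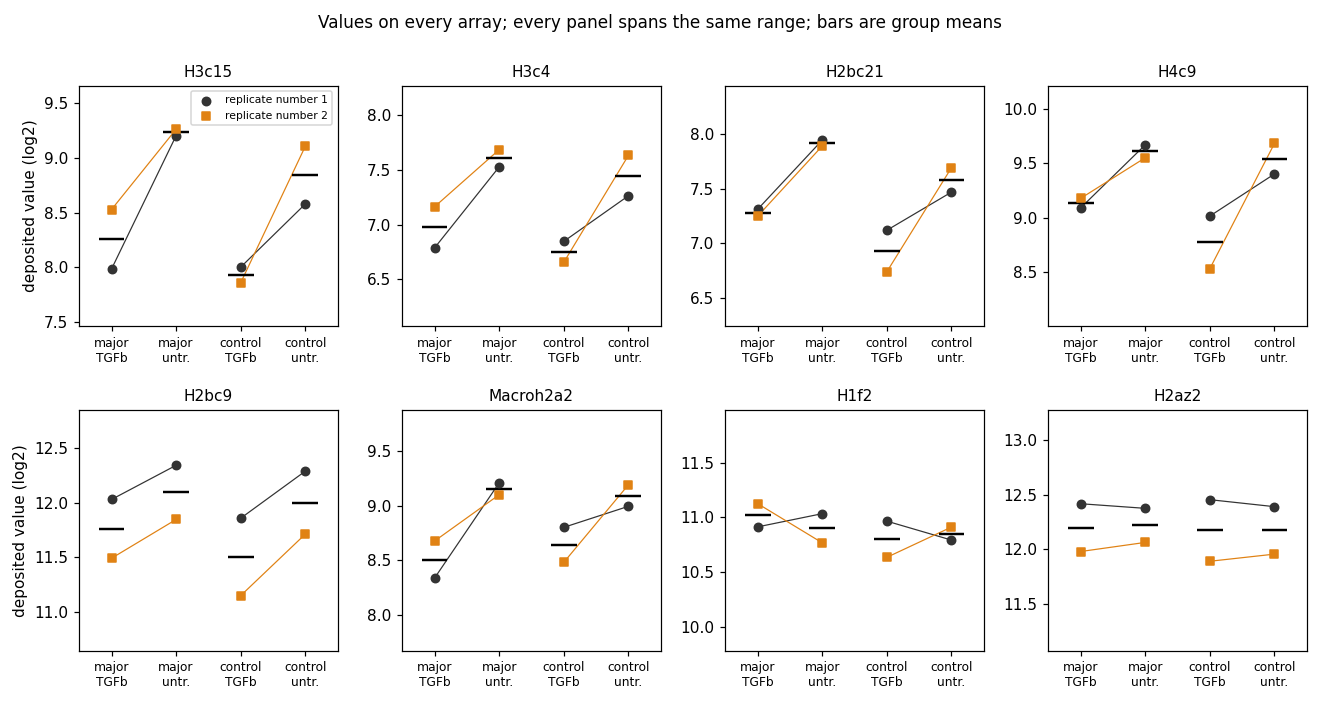
Deposited log2 value (y axis, the same span in every panel) on each array for 8 histone genes; points are arrays, lines join arrays of the same vector and replicate number, and bars are group means of 2 arrays. The TGFbeta arrays lie below the untreated arrays of their number in H3c15, H3c4, H2bc21, H4c9, H2bc9 and Macroh2a2, and not in every pair of H1f2 and H2az2.

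Among variants, Macroh2a2, a gene of the macroH2A proteins that mark silent chromatin, had 8.34 and 8.68 with TGFbeta against 9.21 and 9.10 untreated in major satellite cells. In control vector cells it had 8.80 and 8.48 against 8.99 and 9.19. The treatments did not overlap, and the difference was -0.55 ± 0.12 (limma adjusted p 0.159 without the block, 0.0346 blocked). Its relative Macroh2a1 had 12.46 and 12.46 against 12.42 and 12.50, and 12.42 and 12.48 against 12.39 and 12.65, a difference of -0.03 ± 0.07 with a blocked 95% interval of -0.20 to 0.13. H2aj, an H2A variant known from senescent cells, had 9.04 and 8.79 against 9.30 and 9.29, and 8.96 and 8.72 against 9.27 and 9.03, with all 4 pairs lower. Its difference was -0.34 ± 0.07 (limma adjusted p 0.344 without the block, 0.0275 blocked).

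H2A.Z, a variant placed at promoters, is made from 2 genes. The H2az1 probesets 10496379 and 10540999 were bright and lower in all 4 pairs, at -0.24 ± 0.07 and -0.15 ± 0.06, and neither was called (limma blocked adjusted p 0.087 and 0.196). H2az2 had 12.42 and 11.98 with TGFbeta against 12.38 and 12.06 untreated in major satellite cells, and 12.46 and 11.89 against 12.39 and 11.96 in control vector cells. Its difference was -0.01 ± 0.06, with a blocked 95% interval of -0.17 to 0.15. H2ax, whose protein is phosphorylated at DNA breaks, had a difference of -0.14 ± 0.08, the linker variant H1f10 of 0.00 ± 0.08, and the H3f3a probeset, dim at a mean of 6.72, of 0.07 ± 0.08; none was called in either limma fit.

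The testis cluster genes had 1 probeset each, and 0 were called in either limma fit. H2ac1 and H2bc1 had means of 9.60 and 8.79 and were lower in all 4 pairs, at -0.24 ± 0.06 and -0.26 ± 0.07 (limma blocked adjusted p 0.0543 and 0.0683). H1f6, at a mean of 6.78, had a difference of 0.10 ± 0.08. H2bc1 was also among the symbols of shared H2B probesets, and the part of near copies in its signal was not tested. The germ line variants H1f7, H1f8, H2ab1, H2al2a and H2bfm had levels of 6.58 to 8.38 and none was lower in all 4 pairs.

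The median TGFbeta difference of replication-dependent probesets was -0.27 over the 21 with a mean of at least 12 and -0.38 over the 29 below 12, averaged over the pairs. In the number 2 pair of the major satellite vector the order was the other way, at -0.23 and -0.14. Of these, 4 of 21 and 12 of 29 were called lower in the blocked fit, where 6.8% of all probesets were. Across the 50 probesets, level and difference correlated at Pearson r = 0.306 and Spearman rho = 0.357, as a description of probesets that share genes.

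**Figure D3:**
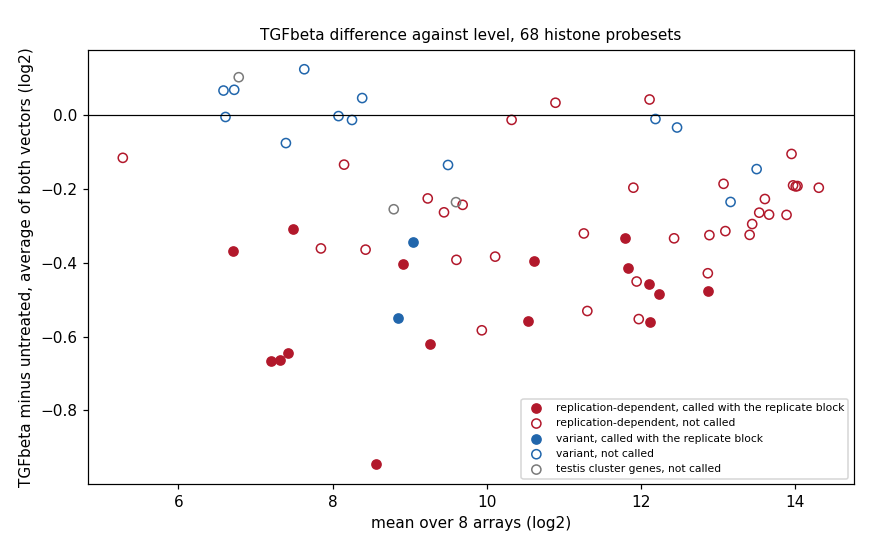
Average TGFbeta difference (y axis, log2) against the mean over the 8 arrays (x axis, log2) for the 68 histone probesets, coloured by class, with filled points for those called in the blocked limma fit. The differences at means of 13 and above lie between -0.32 and -0.11, and H3c15 lies lowest at -0.95.

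By vector, the replication-dependent median of the TGFbeta difference was -0.24 in major satellite cells and -0.41 in control vector cells. By pair it was -0.31 and -0.17 in numbers 1 and 2 of the major satellite vector, and -0.27 and -0.55 in numbers 1 and 2 of the control vector. In major satellite cells 0 members were called without the block, where 0.0% of all probesets were, and 4 were called blocked, all lower: H3c15, H2ac8 and the shared H3 probesets 10403941 and 10404028. Of all probesets, 5.18% were called blocked and 2.91% were called lower. In control vector cells the counts were also 0 (0.0% of all probesets) and 4, all lower: H2bc9, the shared H2B probesets 10403948 and 10408070, and the shared H3 probeset 10403941. Of all probesets, 4.46% were called blocked and 2.09% lower. Without the block, 6 members had an unadjusted p under 0.05 in each vector, where 6.21% of all probesets had in major satellite and 5.83% in control vector cells. Blocked, 21 members did in major satellite cells, where 20.9% of all probesets did, and 38 in control vector cells, where 18.0% did. Leaving out 1 array took these blocked counts to between 0 and 2 in major satellite cells and between 0 and 3 in control vector cells.

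The difference between these responses was fitted directly. No member was called with or without the block, and no probeset of the table was (0.0% in both fits). Unadjusted, 0 members without the block and 1 with it, H2ax, had p under 0.05, where 0.446% and 3.89% of all probesets had. H2ax had 10.01 and 9.19 with TGFbeta against 9.91 and 9.17 untreated in major satellite cells, and 9.76 and 8.77 against 9.90 and 9.28 in control vector cells. The difference between its TGFbeta differences was 0.38 ± 0.15 (limma blocked adjusted p 0.999). For H3c15 that difference was -0.06 with a blocked 95% interval of -0.71 to 0.59, so an unequal response within that interval was not detectable. H2ax, Macroh2a3 and H1f6 were lower with TGFbeta in both control vector pairs and higher in both major satellite pairs.

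Genes that make and handle histone mRNA and protein were described from 4 lists, each gene by its brightest single-symbol probeset. Of 20 measured genes of histone gene transcription and 3′ end processing, 7 were called lower and 0 higher in the blocked fit, with a median of -0.15. Of all probesets, 12.1% were called in that fit and 6.8% were called lower. Without the block, 0 of the 20 genes were called, where 1.33% of all probesets were. Slbp, which binds the histone stem-loop, had 10.03 and 9.54 with TGFbeta against 10.81 and 10.17 untreated in major satellite cells, and 10.01 and 9.61 against 10.46 and 10.32 in control vector cells. Its difference was -0.64 ± 0.09 (limma adjusted p 0.328 without the block, 0.00919 blocked). Npat, the coactivator of replication-dependent histone genes, differed by -0.28 ± 0.06, and Casp8ap2, a 3′ end processing factor, by -0.44 ± 0.06 (limma blocked adjusted p 0.0269 and 0.00671). Nfyb, a subunit of NF-Y, differed by -0.42 ± 0.08 and Cstf2, a cleavage factor, by -0.33 ± 0.06 (limma blocked adjusted p 0.0205 and 0.0255).

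Of all probesets, 12.1% were called blocked and 6.8% were called lower, and 1.33% were called without the block. Of 18 measured chaperones and modifiers of new histones, 1 was called lower without the block. Blocked, 11 were called lower and 0 higher, with a median of -0.42. They included Chaf1a and Chaf1b, subunits of chromatin assembly factor 1, at -0.75 ± 0.07 and -0.78 ± 0.10, and Hat1, which acetylates new H4, at -0.86 ± 0.10 (limma blocked adjusted p 0.00227, 0.0074 and 0.00477). Mms22l, partner of the new-H4 reader TONSL, differed by -0.89 ± 0.12 and was called without the block too (limma adjusted p 0.0498, 0.00853 blocked). Of 19 measured genes of variant deposition, 3 were called lower and 1 higher blocked, beside those shares of 6.8% lower and 12.1% in all. Their median was -0.04, and 0 were called without the block. Hells, a chromatin remodeller, was lowest at -1.07 ± 0.07, with Mis18a and Oip5, which load the centromere histone, at -0.45 and -0.59, and Ubn2, of the HIRA complex, was higher at 0.33 (limma blocked adjusted p 0.00106, 0.0333, 0.0474 and 0.0262). Of 29 measured genes of S phase replication, 1 was called lower without the block and 26 were blocked, with a median of -0.63. In all 4 pairs 28 were lower, where 17.5% of all probesets were. Ccne2, the G1/S cyclin E2, differed by -1.22 ± 0.13 (limma adjusted p 0.0348 without the block, 0.00353 blocked). By pair, the median of this list was -0.42 and -0.71 in numbers 1 and 2 of the major satellite vector and -0.48 and -0.97 in numbers 1 and 2 of the control vector. The replication-dependent histone medians of the same pairs were -0.31, -0.17, -0.27 and -0.55, so the number 2 major satellite pair had the smallest histone difference and not the smallest S phase difference. The part of S phase levels in the histone difference was not tested.

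Between vectors, major satellite cells had slightly higher replication-dependent histone values than control vector cells, without a call. The median difference, averaged over treatments, was 0.18 over the 50 probesets, of which 48 were positive, against 0.06 over the somatic variants and 0.00 over all probesets. Of all probesets, 50.5% were positive. In all 4 pairs of arrays, 22 of 68 members (17 of them replication-dependent) were higher in major satellite cells, where 7.42% of all probesets were. No member was called in limma: for the average of both treatments 0.00863% of all probesets were called without the block and 0.0949% blocked. For untreated cells these shares were 0.00575% and 0.0144%, and for TGFbeta-treated cells also 0.00575% and 0.0144%. For the average, 1 member had an unadjusted p under 0.05 without the block, where 0.759% of all probesets had, and 8 did blocked, where 4.63% did. In the blocked fit, 11 members did in TGFbeta-treated cells, where 5.39% of all probesets did, and 1 in untreated cells, where 3.55% did.

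The vector difference lay mostly in 1 pair. The replication-dependent medians were 0.03 and 0.46 in numbers 1 and 2 of the TGFbeta arrays and 0.08 and 0.12 in numbers 1 and 2 of the untreated arrays. In the number 2 TGFbeta pair, the H1 median was 1.05 and the H4 median 0.71. H1f5 had 11.85 in the major satellite array of that pair, against 10.82 in the control vector array, and H4c14, an H4 gene, had 13.04 against 11.89. The median level of the replication-dependent probesets was 10.73 on that control vector array, and 11.58 to 12.19 on the other 7 arrays. In the blocked fit, the median vector difference was 0.09 without that array, 0.11 without the major satellite array of the same pair and 0.27 without the control vector TGFbeta array of number 1; without each of the other 5 arrays it moved by less than 1.5 times. In the fit without the block, it was 0.01 without the control vector TGFbeta array of number 2. The S phase replication genes had a median level of 10.01 on the major satellite TGFbeta array of number 2, against 9.71 on the control vector TGFbeta array of that number, also the lowest of the 8 arrays. The part of these levels in the vector difference was not tested.

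Of the 68 members, 59 had a higher mean in major satellite cells, where 50.5% of all probesets had. The largest differences were 0.54 for the shared probeset 10494386, with a blocked 95% interval of -0.52 to 1.61, and 0.48 for H1f1 (-0.03 to 0.99). The member with the smallest blocked p was the shared H3 probeset 10403941, at 0.27 (0.12 to 0.43), with a limma blocked adjusted p of 0.805. Macroh2a2, at -0.04, Macroh2a1, at -0.02, and H2az2, at 0.04, had differences near 0.

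**Figure D4:**
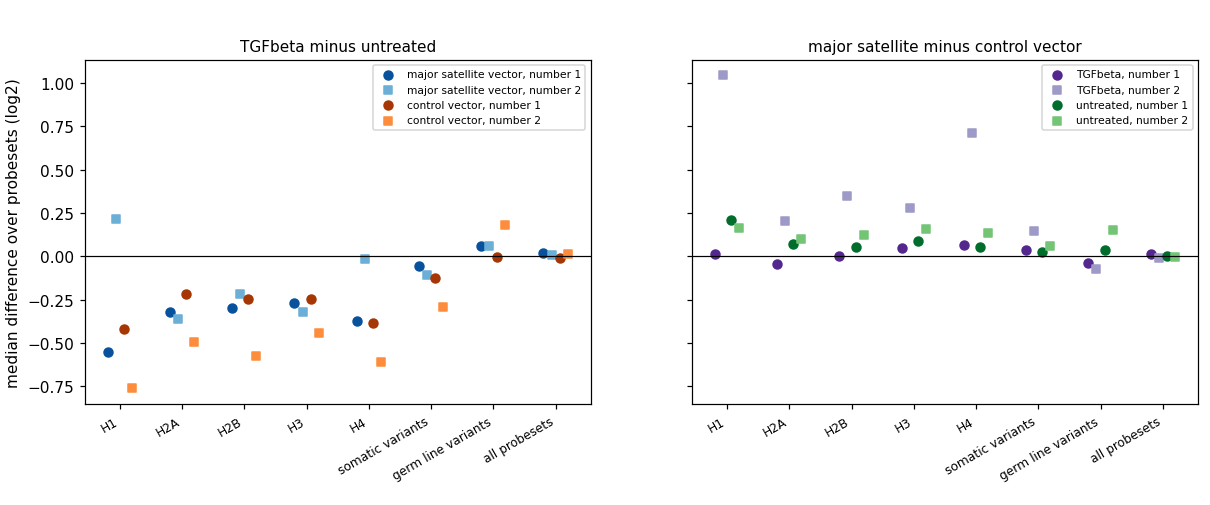
Median log2 difference over the probesets of each histone family (y axis), left for TGFbeta minus untreated and right for major satellite minus control vector, 1 point per pair of arrays of the same replicate number. On the left the core histone families lie below 0, with H4 at -0.02 in the number 2 pair of the major satellite vector. The linker histone H1 is at 0.21 in that pair. On the right the number 2 TGFbeta pair stands above the other 3 pairs in the replication-dependent families and the somatic variants, at 1.05 for H1 and 0.71 for H4. It is the lowest pair for the germ line variants, at -0.07, and for all probesets, at -0.01.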

How the data were processed

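Values were the log2 expression values per probeset that the authors deposited in 1 table of 34760 probesets and 8 arrays, with 0 missing. The tools listed, per the submitters' processing notes, are RMA and limma. What each was used for, its version and the genome build are not given in the sources used here. Per the labels' protocols, total RNA was amplified and biotin-labelled for Affymetrix arrays. An array has no read depth, so the number of arrays limits the precision.

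Probesets were named from the platform annotation, with symbols brought up to date through Entrez identifiers and RefSeq (GRCm38.p6). Differences were fitted with limma 3.58.1 (lmFit, contrasts.fit, eBayes) in R 4.3.3 on all probesets, as group means without a block (4 residual degrees of freedom) and with the replicate number as a block (3 residual degrees of freedom). Comparisons numbered 7, namely TGFbeta in each vector and averaged, vector in each treatment and averaged, and the difference between TGFbeta responses. Tests were two-sided, with Benjamini-Hochberg adjustment over 34760 probesets. The fit was tested on simulated data. Medians over probesets, within-number differences and promoter matches were computed in Python 3.11.15.

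Named members were those called in either fit, up to the 8 largest falls, the brightest of each family, and the main somatic variants and testis genes. H1f0 was not analysed here, nor was H3f3b beyond its mixed probesets. H2bc4, H1f1, H1f2, H4c14, H2ac4, H2aw and the shared probeset 10494386 were named after their values were seen. Other genes were up to 4 of each list, plus Slbp and Npat. Members and lists were chosen with earlier results of these data known. Alternatives covered the block, normalization, filters on level or annotation, 1 probeset per gene, the eBayes options and each array left out.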

Additional observations from a re-analysis of the deposited data

How the results depend on the processing

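Without the block, the count of called members was 0 in all 7 comparisons and remained 0 under each alternative, except for the TGFbeta responses. In the average TGFbeta response, 3 were called among probesets with a gene and 3 with 1 probeset per gene, 18 with the replicate block and 13 with the number as a random block. For the single vectors the replicate block gave 4 calls each, and the random block gave 2 with the major satellite vector and 1 with the control vector. Alternatives to the blocked counts were chosen after seeing the data. The blocked average count of 18 became 30 among probesets with a gene, and ran from 2 to 22 without 1 array: 22 without the control vector TGFbeta array of number 1 and 6 without that of number 2, 10 and 4 without the untreated control vector arrays of numbers 1 and 2, 8 and 2 without those of the major satellite vector, and 9 and 17 without the major satellite TGFbeta arrays. The blocked count of 4 with the major satellite vector was 13 among probesets with a gene, 10 with 1 probeset per gene, and 0 to 2 without 1 array. That of 4 with the control vector was 7 with a mean of at least 6, 13 among probesets with a gene, 14 with 1 probeset per gene, and 0 to 3 without 1 array. Fewer probesets were tested under these filters.

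In the fit without the block, where leaving out an array also unbalances the replicate numbers, the median TGFbeta difference of the replication-dependent probesets ran from -0.50 (without the control vector TGFbeta array of number 1) to -0.14 (without that of number 2), and was -0.21 without the untreated control vector array of number 1. With the block it ran from -0.43 to -0.23. That of the variants ran from -0.07 to 0.03, and with the block from -0.08 to 0.0075. The median vector difference ran from 0.0086 to 0.34 for the replication-dependent and from -0.012 to 0.11 for the variant probesets, and with the block from 0.09 to 0.27 and from 0.0089 to 0.08. Quantile normalization, centring and the filters left these 4 medians within the spread between replicate numbers. Of 39 named probesets, 38 kept their sign and side of the threshold for the average TGFbeta response under quantile normalization. The exception was the shared probeset 10494386, at -0.013 as reported and 0.013 after it, neither called. The block added 18 calls among the 39. With 2 arrays per group, differences smaller than the intervals given were not detectable.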
